A study of Mus musculus with 6 samples.

Results

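The genes described here receive and carry out the Hedgehog signal: the receptor gene Ptch1, the transducer gene Smo, the co-receptor genes Gas1, Cdon and Boc, the transcription factor genes Gli1, Gli2 and Gli3, and the feedback inhibitor gene Hhip. They were taken as every probe set annotated to exactly 1 gene symbol among these 9 genes, which gave 24 of the 45037 probe sets that are not array controls. RNA came from C57BL/6 mouse embryos at embryonic day 10.5, with no treatment or mutation stated, and from 2 adjoining pieces of their ventral midbrain: the floor plate at the ventral midline, and the ventral lateral tissue beside it, dissected without overlap. Each region had 3 samples, each a pool of tissue from 6 embryos of mixed sex, and 5 ng of total RNA per sample was amplified and hybridised to an Affymetrix mouse array. Each deposited value is relative to the median of that probe set over the 6 arrays, so it gives how samples differ and not how strongly a gene is expressed. They were read as log2, with more RNA giving a higher value; the sources used here state neither.

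Hedgehog ligands bind Patched receptors, and binding relieves the block that Patched places on Smoothened, the membrane protein encoded by Smo. Smoothened then acts through the primary cilium to shift the balance of Gli2 and Gli3 proteins from repressor forms towards activator forms. The activator forms switch on target genes such as Gli1, Ptch1 and Hhip. Patched and Hhip bind the ligand and so limit the signal, while Gas1, Cdon and Boc help cells to receive it. In the ventral neural tube Sonic hedgehog from the notochord and floor plate sets the order of progenitor domains.

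The pieces carried the markers of their labels. All 8 measured floor plate markers passed as higher in floor plate, against 4.55% of 18193 genes. All 6 measured ventrolateral markers, namely Nkx2-2, Nkx6-2, Dbx1, Pax6, Gata2 and Gad1, passed as lower, against 3.58%. Passing meant a p-value below 0.05 in limma after Benjamini-Hochberg adjustment over all genes. The marker lists were picked with earlier results from these data known, so these counts are not an independent check of the labels. Array medians over all probe sets lay between -0.0031 and 0.0045, no pair of arrays held identical values. Precision is limited by having 6 arrays. The labels do not say whether pools of the 2 regions shared embryos, and the p-values rest on the spread among these pools alone. Fewer cells of a type and less RNA per cell cannot be told apart in such bulk tissue.

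Most of these genes were lower in floor plate than in the tissue beside it. Of the 24 probe sets, 14 were lower and 1 was higher in the fit over all 45037 probe sets, against a background of 2.01% lower, 2.70% higher and 4.71% in either direction. All 14 came from 6 genes, namely Gli1, Gli2, Gli3, Hhip, Gas1 and Boc, and 13 of them differed by at least 2-fold. The median log2 difference was -1.12 over the 24 probe sets and -0.0040 over all probe sets. The 3 floor plate values lay entirely below the 3 ventral lateral values in 16 of the 24 probe sets, against 11.0% of all probe sets, and entirely above them in 2, against 11.5%. The background for either direction was 22.4%. With the mean of the probe sets of each gene, 6 of the 9 genes were lower, against 3.58% of 18193 genes, and 0 were higher, against 4.55%. The regions did not overlap for 8 of the 9 genes, all but Smo, against 26.1% of all genes. At an unadjusted p under 0.05 limma gave 6 of the 9 genes lower, against 9.65% of all genes. It gave 1 higher, Cdon, a share of 11.1% and so near the 10.6% of all genes.

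**Figure D1:**
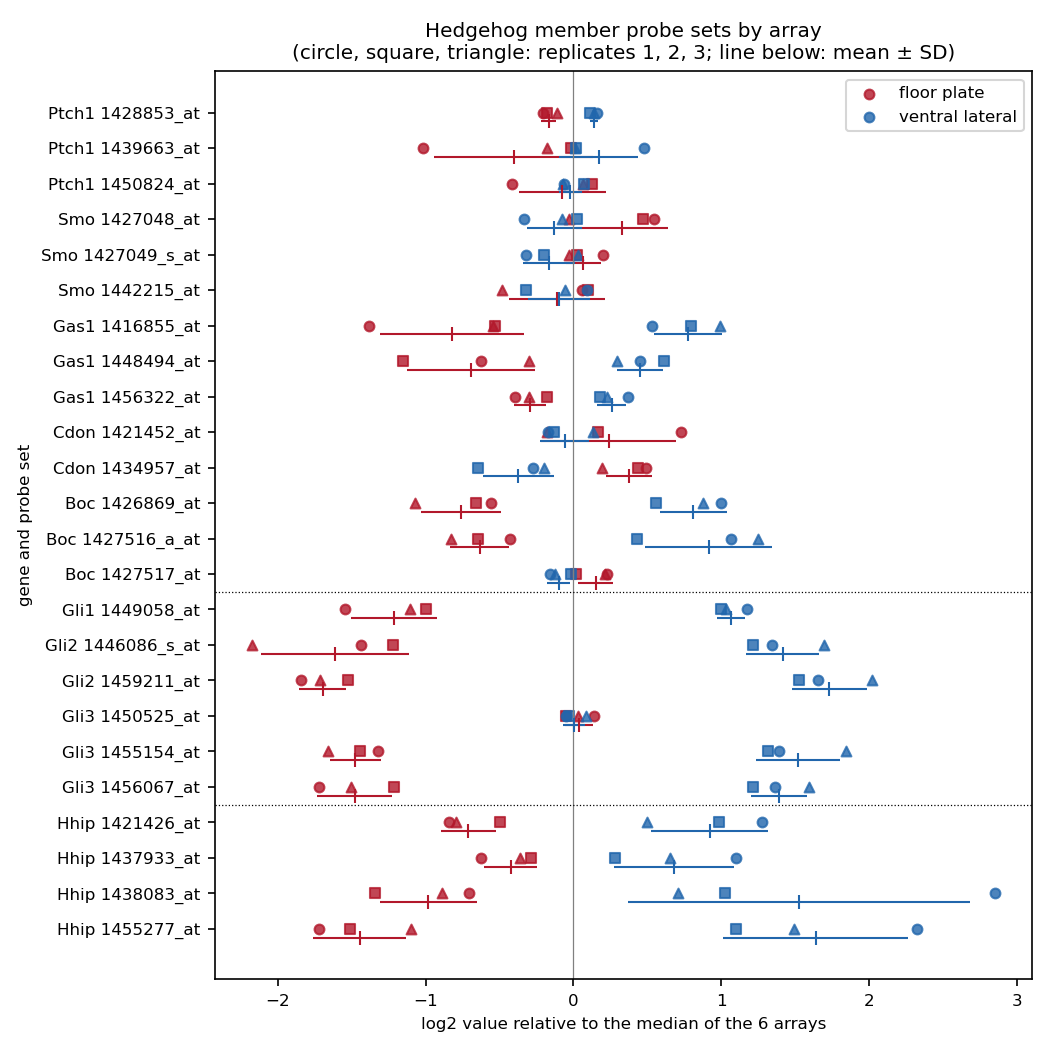
Log2 value of each of the 24 probe sets on each array, relative to the median of the 6 arrays (x axis), with floor plate in red, ventral lateral in blue and the mean ± SD (n = 3) drawn under each row. The regions stand apart for Gli1, both probe sets of Gli2, 2 of 3 of Gli3 and all 4 of Hhip, and lie close together for Ptch1, Smo and 1 probe set of Gli3.

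Of the 6 probe sets of the Gli factors 5 were lower in floor plate, with a median log2 difference of -2.93 over the 6. Gli2 encodes the main activator of the pathway. On probe set 1459211_at its log2 values were -1.84, -1.53 and -1.71 in floor plate replicates 1 to 3 and 1.65, 1.53 and 2.02 in ventral lateral replicates 1 to 3. The regions were over 3 log2 units apart on every pair of arrays, and Gli2 was 10.8-fold lower in floor plate (log2 difference -3.43, SE 0.15, adjusted p = 7.9e-05). This placed it at rank 30 from the lowest of all 45037 log2 differences. The other Gli2 probe set, 1446086_s_at, gave a log2 difference of -3.03 (SE 0.25, adjusted p = 0.000696), with floor plate replicate 3 at -2.17 against -1.44 and -1.22 in replicates 1 and 2.

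Gli3 encodes the main repressor of the pathway. Probe set 1455154_at stood at -1.32, -1.45 and -1.66 in floor plate against 1.39, 1.32 and 1.85 beside it, a log2 difference of -2.99 (SE 0.16, adjusted p = 0.000195). Probe set 1456067_at gave -2.87 (SE 0.16, adjusted p = 0.000195), with values of -1.72 to -1.22 against 1.22 to 1.60. Both placed all floor plate samples far below all ventral lateral ones. The third, 1450525_at, showed no such gap: its 6 values lay between -0.05 and 0.14 with the regions mixed, and its log2 difference of 0.03 had a 95% interval of -0.19 to 0.26. Whether 1450525_at detected its transcript cannot be read from centred values. Since this probe set enters the mean for the gene, Gli3 was 3.85-fold lower on that mean and 7.97-fold lower on 1455154_at.

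Gli1, an activator that is itself switched on by Hedgehog signalling and is widely used as its readout, was measured by 1 probe set, 1449058_at. The floor plate arrays read -1.54, -0.996 and -1.10 and the ventral lateral arrays 1.17, 0.996 and 1.03. The 3 ventral lateral arrays were close to each other (SD 0.09, n = 3), and floor plate replicate 1 lay below the other two. Gli1 was 4.87-fold lower in floor plate (log2 difference -2.28, SE 0.15, adjusted p = 0.00033).

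The 250 bases before the annotated starts of Gli2, Gli3 and Hhip are shown from RefSeq (build GRCm38.p6), in lower case and 5′ to 3′ on the strand of the gene. They lie at chr1:119053620-119053869 on the minus strand for Gli2, chr13:15463473-15463722 on the plus strand for Gli3 and chr8:80058009-80058258 on the minus strand for Hhip.
Gli2: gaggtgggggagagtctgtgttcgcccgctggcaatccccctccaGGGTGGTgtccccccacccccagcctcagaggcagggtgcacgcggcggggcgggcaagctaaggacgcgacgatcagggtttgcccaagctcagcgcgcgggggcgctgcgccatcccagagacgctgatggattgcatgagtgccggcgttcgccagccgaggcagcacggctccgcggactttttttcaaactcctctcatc
Gli3: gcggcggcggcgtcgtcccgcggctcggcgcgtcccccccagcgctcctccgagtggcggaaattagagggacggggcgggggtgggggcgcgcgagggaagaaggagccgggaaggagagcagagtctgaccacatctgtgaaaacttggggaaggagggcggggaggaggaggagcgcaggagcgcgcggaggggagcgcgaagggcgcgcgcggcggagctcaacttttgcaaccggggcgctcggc
Hhip: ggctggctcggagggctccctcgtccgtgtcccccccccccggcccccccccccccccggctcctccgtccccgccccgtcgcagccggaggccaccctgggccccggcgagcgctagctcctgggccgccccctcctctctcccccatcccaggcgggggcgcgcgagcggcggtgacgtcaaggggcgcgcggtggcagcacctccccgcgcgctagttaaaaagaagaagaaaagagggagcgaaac
Capitals in the Gli2 promoter mark GGGTGGT, the reverse complement of ACCACCC, which is the inner part of the Gli binding consensus GACCACCCA. That match starts 205 bases before the annotated start. The table held promoters for 7 of the 9 genes, all but Gli1 and Boc. That of Gas1, which was also lower in floor plate, held no match and is not printed. Over windows of 300 bases (250 before to 50 after the start), searched on both strands, 0 of these 7 held GACCACCCA, which occurs in 0.253% of 32851 such windows. The shorter ACCACCC, contained in the consensus, was in 1 of the 7 and in 4.61% of all windows.

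Hhip encodes a membrane-anchored protein that binds Hedgehog ligands and is induced by the signal. All 4 of its probe sets were lower in floor plate, by log2 differences of -1.10 to -3.08. On 1455277_at the values were -1.72, -1.51 and -1.10 in floor plate against 2.32, 1.10 and 1.49 (log2 difference -3.08, SE 0.30, adjusted p = 0.0017). On 1438083_at they were -0.71, -1.35 and -0.89 against 2.85, 1.02 and 0.71 (log2 difference -2.51, SE 0.51, adjusted p = 0.0349). Ventral lateral replicate 1 held the highest Hhip value on all 4 probe sets, and the regions overlapped on none. The remaining probe sets, 1421426_at and 1437933_at, gave log2 differences of -1.63 (adjusted p = 0.00404) and -1.10 (adjusted p = 0.0244). The calls on 1437933_at and 1438083_at were lost in several of the fits to 5 arrays, for 1437933_at when any floor plate array or ventral lateral replicate 3 was left out (and with the replicate number as a block, adjusted p = 0.055), and for 1438083_at when any floor plate array or ventral lateral replicate 2 was.

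Ptch1, the receptor that is also a target of the signal, did not pass on any of its 3 probe sets in limma. At an unadjusted p under 0.05 limma gave 1 of them lower, against 8.12% of all probe sets. On 1428853_at the values were -0.21, -0.18 and -0.11 in floor plate and 0.16, 0.11 and 0.14 in ventral lateral samples. The regions did not overlap there, but the log2 difference was only -0.30 (SE 0.09, adjusted p = 0.117). On 1439663_at they were -1.02, -0.01 and -0.18 against 0.48, 0.02 and 0.01, with replicate 1 of each region farthest from 0 (log2 difference -0.57, 95% interval -1.19 to 0.04). The third probe set, 1450824_at, had overlapping regions and a log2 difference of -0.05. On the mean of its probe sets the 95% interval for Ptch1 ran from -0.65 to 0.02.

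Smo, which encodes the transducer, did not pass on any of its 3 probe sets in limma either. At an unadjusted p under 0.05 limma gave 1 of them higher, against 8.37% of all probe sets. The regions overlapped on each Smo probe set, with log2 differences of 0.46 on 1427048_at (adjusted p = 0.239), 0.23 on 1427049_s_at and -0.01 on 1442215_at. On 1427048_at floor plate replicates 1 and 2 stood at 0.55 and 0.47 and replicate 3 at -0.03, against -0.33, 0.03 and -0.08 in ventral lateral samples. The 95% interval for the mean of the Smo probe sets was -0.07 to 0.52.

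The 3 co-receptors did not behave as a group. Gas1, which encodes a lipid-anchored surface protein that binds Sonic hedgehog, was lower on all 3 probe sets. On 1416855_at it was 3.02-fold lower (log2 difference -1.59, SE 0.24, adjusted p = 0.00993), with -1.38, -0.53 and -0.55 in floor plate and 0.53, 0.80 and 0.99 in ventral lateral samples. Floor plate replicate 1 lay lowest there, whereas replicate 2 lay lowest on 1448494_at, at -1.15 against -0.62 and -0.30. The log2 differences on 1448494_at and 1456322_at were -1.14 (adjusted p = 0.0236) and -0.55 (adjusted p = 0.0259). Each of these 2 calls was lost in 4 or more of the 6 fits to 5 arrays, as given with the alternatives.

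Boc, a member of the immunoglobulin superfamily related to Cdon, was lower on 2 of its 3 probe sets. On 1426869_at the values were -0.56, -0.66 and -1.07 in floor plate against 1.001, 0.56 and 0.88 beside it, a 2.98-fold difference (log2 difference -1.57, SE 0.17, adjusted p = 0.00247). On 1427516_a_at the log2 difference was -1.55 (adjusted p = 0.00697), with ventral lateral replicate 2 at 0.43 below the 1.07 and 1.25 of replicates 1 and 3. The third, 1427517_at, pointed the other way without passing: 0.23, 0.02 and 0.22 in floor plate against -0.16, -0.02 and -0.12 (log2 difference 0.25, adjusted p = 0.275). The regions did not overlap on any of the 3.

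Cdon gave the 1 probe set that was higher in floor plate. On 1434957_at its values were 0.49, 0.44 and 0.20 in floor plate and -0.27, -0.65 and -0.20 in ventral lateral samples, a 1.68-fold difference (log2 difference 0.75, SE 0.15, adjusted p = 0.0304). This call was lost without floor plate replicate 1 (adjusted p = 0.111) or 2 (0.0905) and without ventral lateral replicate 1 (0.0777) or 2 (0.0664), and with the replicate number as a block (0.0596). The other probe set, 1421452_at, had overlapping regions and a log2 difference of 0.30 (adjusted p = 0.589), with floor plate replicate 1 at 0.73 and replicate 3 at -0.18. On the mean of both, Cdon did not pass (log2 difference 0.52, adjusted p = 0.106).

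**Figure D2:**
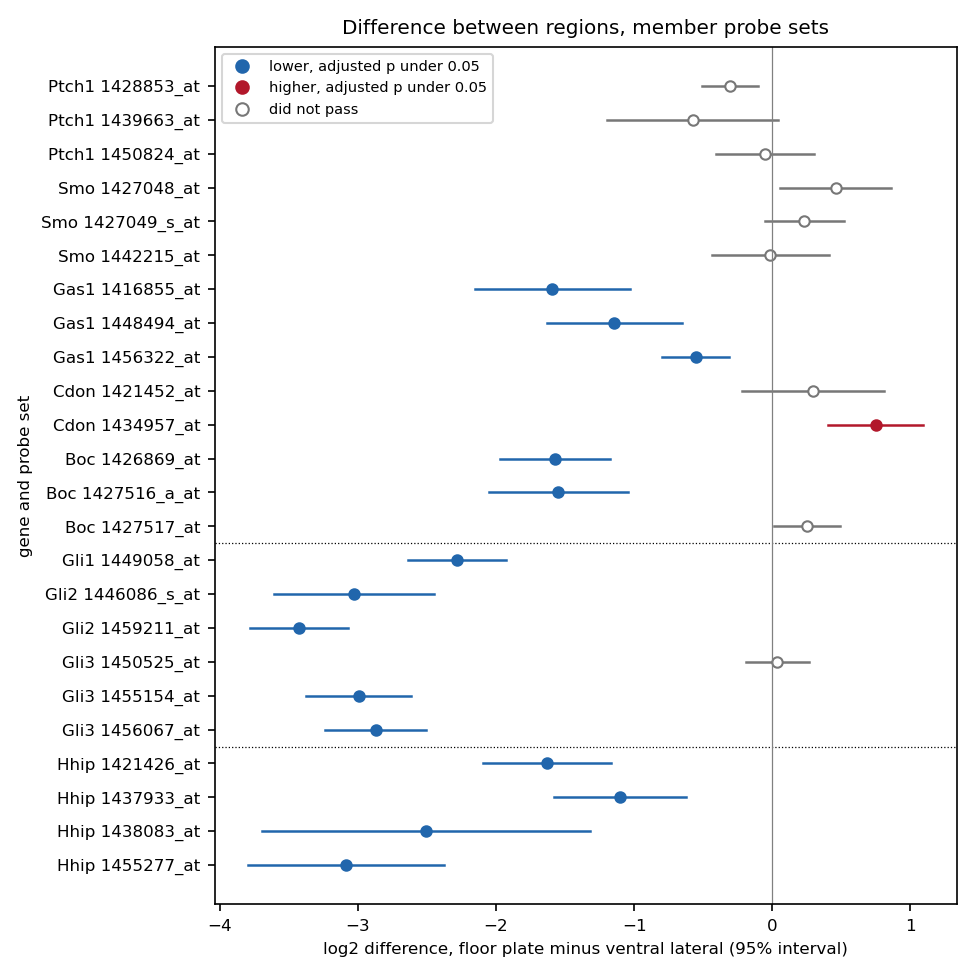
Log2 difference, floor plate minus ventral lateral, with its 95% interval (x axis) for each of the 24 probe sets, filled where the adjusted p was under 0.05. Filled points lie left of 0 for Gas1, Boc, the Gli factors and Hhip and right of 0 for 1434957_at of Cdon, and the open points include all probe sets of Ptch1 and Smo.

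Probe sets of 1 gene share their transcript and are not replicates, and for Gli3, Boc and Cdon they differed in their call. Of the 24 probe sets, 5 were annotated to a RefSeq mRNA, and 2 of these 5 passed, those of Gli1 and 1421426_at of Hhip. Of the 16 annotated to another GenBank sequence 10 passed, and of the 3 with no sequence listed 3 passed. Over all probe sets 4.71% passed. The probe sets of Gli3, Ptch1 and Cdon that are annotated to a RefSeq mRNA were each the one nearest to 0 for their gene. Hhip differed, with -1.63 on its RefSeq probe set 1421426_at and -1.10 on 1437933_at.

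On the mean of the probe sets of each gene, the log2 differences ran from Gli2 (-3.23) through Gli1 (-2.28), Hhip (-2.08), Gli3 (-1.94), Gas1 (-1.10), Boc (-0.96), Ptch1 (-0.31) and Smo (0.22) to Cdon (0.52). Neighbours in this order had separate 95% intervals between Gli2 and Gli1, between Gli3 and Gas1 and between Boc and Ptch1, and overlapping ones elsewhere. The order depended on the probe set: on the one with the largest variance over the arrays Gli3 reached -2.99, Boc -1.55, Gas1 -1.59 and Hhip -3.08.

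Gli1 and Ptch1, both targets of the signal, were compared within each array. The log2 value of Gli1 minus that of Ptch1 was -0.997, -0.97 and -1.03 on the floor plate arrays and 0.98, 0.93 and 1.01 on the ventral lateral arrays. That within-array difference varied less (SD 0.03 and 0.04, n = 3 each) than either gene alone in floor plate (SD 0.29 for each), and floor plate replicate 1 lay lowest for both. It shifted by -1.97 between the regions, and that of Hhip and Ptch1 by -1.77. For the co-receptors the shift was -1.62 between Gas1 and Cdon and -1.48 between Boc and Cdon. A smaller spread than in either gene alone was not general in floor plate (n = 3). The SD was 0.23 for Hhip minus Ptch1 against 0.10 for Hhip alone. It was 0.51 for Gas1 minus Cdon against 0.21 and 0.30 for these genes alone. For Boc minus Cdon it was 0.15, against 0.15 and 0.30. In each of these 4 comparisons the regions did not overlap. The 2-sided exact permutation p was 0.1 (0.1 after Benjamini-Hochberg adjustment), the smallest that 3 against 3 arrays allow. Each comparison set a gene that was lower against 1 that did not pass on its mean. The lack of overlap therefore largely follows from the gene differences above and is no separate result.

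The genes whose values over the 6 arrays lay nearest to those of Gli1, by the root mean square difference of log2 values, were Lhx1os (0.187), Pou4f1 (0.195), Slitrk1 (0.195), Shisa3 (0.220) and Dusp26 (0.224). Among the other 8 genes of the pathway core described here, Gli3 came closest to Gli1, at position 11 of all named genes (0.278), followed by Hhip at position 41. Nearest to Gli2 were Gad1 (0.232), Pappa2, Tal2, Lhx1 and Nkx6-2 (0.344). Gad1 encodes an enzyme of GABA synthesis, and Tal2 and Lhx1 encode transcription factors. Nearest to Cdon were 1700029I15Rik (0.0948), Lama5, Naglu, Pik3cg and Grin2d (0.123), and Smo stood at position 156. Both regions enter this measure, so it mostly ranks genes by the size of their difference between the regions.

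Elsewhere in the pathway 8 genes passed, 4 of them ventral neural targets. Shh, Foxa2, Nkx2-2 and Nkx6-2 are also among the region markers above, so their differences are not separate results. Of 38 measured genes on a list of ligands, release factors, transducers, kinases and targets, 5 were lower and 3 higher in floor plate, with a median log2 difference of 0.01 against -0.0040 over all 18193 genes. The share that passed in either direction among all genes was 8.13%. Shh, the ligand made by the floor plate, was higher on the mean of its 2 probe sets, at 0.15, 0.33 and 0.37 in floor plate against -0.64, -0.22 and -1.17 (log2 difference 0.96, SE 0.22, adjusted p = 0.0346). Neither Shh probe set passed alone, at log2 differences of 1.76 (adjusted p = 0.0734) and 0.16 (adjusted p = 0.56). Ihh and Dhh did not pass.

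Among release and binding factors, Scube2 and Scube3, which encode secreted proteins that help to release the lipid-bearing ligand, went in opposite directions. Scube2 was 2.52-fold lower, at -0.75, -0.99 and -0.28 in floor plate against 1.31, 0.39 and 0.28, and Scube3 was 1.45-fold higher. None of 10 measured transducers, which include Sufu, Kif7 and Gpr161, passed in limma, and none of 8 kinases and turnover factors did. At an unadjusted p under 0.05 limma gave 1 transducer lower and 0 kinases and turnover factors in either direction. Of all genes 9.65% were lower and 10.6% higher at that threshold.

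Ventral neural target genes moved both ways. The homeobox genes Nkx6-2 (log2 difference -2.88, adjusted p = 0.000112) and Nkx2-2 (-2.11, adjusted p = 0.00322) and the bHLH gene Olig2 (-1.86, adjusted p = 0.00425) were lower in floor plate, and the forkhead gene Foxa2 was higher (1.76, adjusted p = 0.00784). Nkx6-1 (0.71, adjusted p = 0.0528) and Nkx2-9 (-0.10) did not pass. Of the general targets, the cyclin gene Ccnd1 was lower (-0.62, adjusted p = 0.0221), at -0.36, -0.39 and -0.13 against 0.11, 0.36 and 0.52, while Ccnd2, Mycn and Rab34 did not pass. Without floor plate replicate 1 the list had 3 lower and 1 higher genes, and without replicate 2 again 3 and 1.

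**Figure D3:**
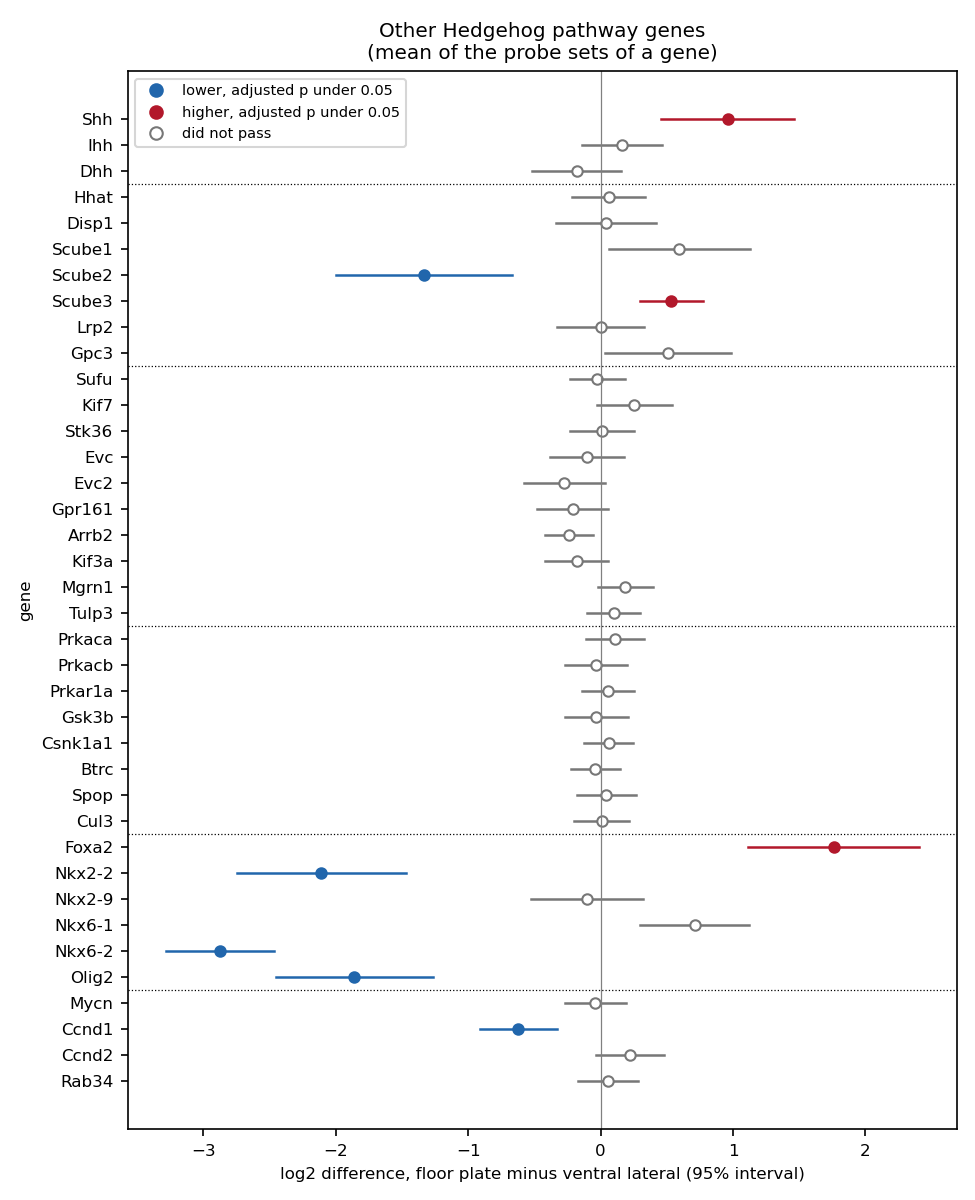
Log2 difference, floor plate minus ventral lateral, with its 95% interval (x axis) for 38 other genes of the pathway, on the mean of the probe sets of each gene, in the order ligands, release and binding, transduction, kinases and turnover, ventral neural targets and general targets. Filled points passed at an adjusted p under 0.05, and all 18 genes of transduction and turnover are open.

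Markers of other cells that the pieces could hold are given beside these differences, as the mean log2 value of each list on each array. Dorsal midbrain markers moved with the regions: Pax3 (log2 difference -2.53), Pax7 (-1.39) and Zic1 (-1.73) were lower in floor plate and Lmx1b, which the midbrain floor plate also expresses, was higher, with list means of -0.56 to -0.42 against 0.12 to 0.52. Of 7 neuron markers 1 was lower in floor plate, Stmn2 (-0.58), and 6 had lower values at an unadjusted p under 0.05 in limma, against 3.58% and 9.65% of all genes. The median log2 difference of that list was -0.47, with means of -0.30 to -0.06 against -0.01 to 0.38. The progenitor list had 1 of 6 genes lower, Sox1 (-1.56), and 2 lower and 1 higher at an unadjusted p under 0.05 (9.65% and 10.6% of all genes), with means of -0.22 to -0.09 against 0.07 to 0.09. Proliferation genes had 0 of 3 passing in limma (2 higher at an unadjusted p under 0.05), with means of 0.02 to 0.16 against -0.18 to -0.03. The part of these lists in the differences of the Hedgehog genes was not tested.

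Head mesenchyme, which can also respond to Hedgehog, did not separate the regions as a list. Its means were -0.27 to 0.43 in floor plate against -0.43 to 0.21. Of its 9 genes 1 passed as higher in floor plate, Twist1 (log2 difference 2.11), against 4.55% of all genes. At an unadjusted p under 0.05 in limma the list had 1 lower and 2 higher, against 9.65% and 10.6% of all genes. Endothelial, erythroid and macrophage lists had 0 of 5, 0 of 4 and 0 of 4 genes passing in limma, with overlapping regions in each list mean. At an unadjusted p under 0.05 limma gave 1, 0 and 1 of their genes lower, against 9.65% of all genes. In centred values no marker can be called absent.

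**Figure D4:**
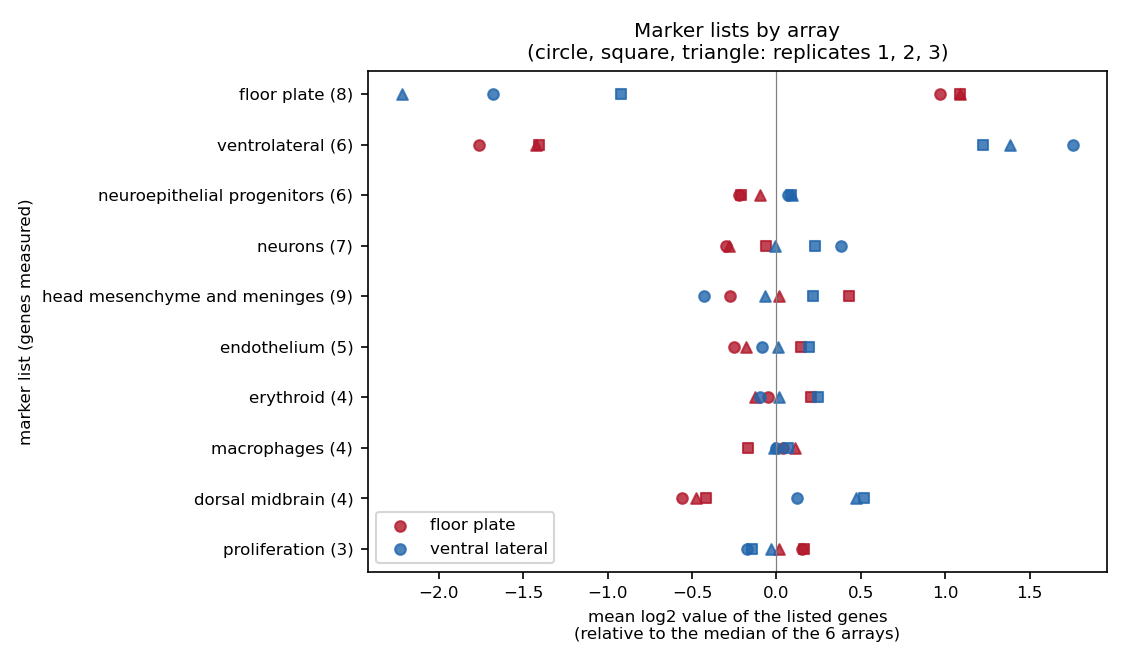
Mean log2 value of each marker list on each array (x axis), relative to the median of the 6 arrays, with floor plate in red and ventral lateral in blue. Floor plate, ventrolateral and dorsal lists lie far apart between the regions, while mesenchyme, endothelium, erythroid and macrophage lists overlap.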

How the data were processed

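Per the submitters' processing notes the authors used RMA, a method with background correction, quantile normalization and a summary over the probes of a set. The deposited values, taken as log2, are centred: each of the 45101 probe sets (100%) has a median within 1e-05 of 0 across the 6 arrays. The centring step, log base, direction, software version and genome build are not given in the sources used here.

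Names came from GEO's platform annotation. After removal of 64 control probe sets, 34945 had 1 gene symbol, 932 several and 9160 none. The main test was limma 3.58.1 (lmFit, eBayes; R 4.3.3) over all 45037 probe sets, with Benjamini-Hochberg adjustment over all of them and a threshold of 0.05, and again on the mean of the probe sets of each of 18193 genes. No filter on low values could be set, so every member was tested. The fit was tested on simulated data. Other pathway genes and markers were taken as gene means, and listed genes with no singly named probe set were not analysed here.

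Every probe set of the 9 genes is named, with other pathway genes that passed and the 5 genes nearest to Gli1, Gli2 and Cdon. The genes and lists were chosen with earlier results of these data known. Python 3.11.15, pandas 2.3.3 and matplotlib 3.10.9 served for sequences and plots. Alternatives were a replicate block, quantile normalization, centring of arrays, array weights, robust eBayes, thresholds of 0.01 and 0.1, other choices of probe sets and leaving out each array.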

Additional observations from a re-analysis of the deposited data

How the results depend on the processing

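Gene-level calls were the firmest. The 6 genes lower on the mean of their probe sets remained lower in every alternative run, and with the largest-variance probe set 1 gene, Cdon, was called higher. The 14 lower probe sets were 14 or 13 under other scalings, array weights and robust eBayes, 10 at a threshold of 0.01 and 10 to 12 without 1 array, with fewer samples to fit. The calls on 1448494_at of Gas1 were lost without floor plate replicate 1 or any 1 ventral lateral replicate, after quantile normalization (adjusted p = 0.0515) and with the replicate block (0.0506), and those on 1456322_at without floor plate replicate 1 or 3 or any 1 ventral lateral replicate and with the block (0.0725). The 1 higher probe set was 0 at a threshold of 0.01 and 0 to 1 without 1 array. Other pathway genes numbered 3 lower and 1 higher at a threshold of 0.01, and 3 to 5 lower and 1 to 4 higher without 1 array. Over all probe sets 373 were lower and 584 higher at 0.01, 1419 lower at 0.1, and 510 to 743 lower and 753 to 991 higher without 1 array, with the lowest counts of both without floor plate replicate 1.

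Probe sets near 0 changed sign: 1442215_at of Smo to 0.033 after quantile normalization and 0.036 with array weights, and between -0.13 and 0.17 without 1 array, 1450824_at of Ptch1 between -0.15 and 0.12, and 1450525_at of Gli3 between -0.014 and 0.080. The cause was not tested.

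Same-numbered samples of the 2 regions had correlations of their deviations from the group means of 0.01, 0.12 and 0.11. For differently numbered samples these correlations ran from -0.15 to 0.03. Such values do not settle whether the numbers mark pairs, and the main fit did not take them as pairs. With the replicate block 11 member probe sets were lower and 0 higher, the lost calls being 1448494_at and 1456322_at of Gas1, 1437933_at of Hhip and 1434957_at of Cdon. The block gave 842 lower and 1062 higher over all probe sets.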

Other observations

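Ventral lateral replicate 1 stood above the other 2 ventral lateral samples for some genes tied to the Hedgehog signal and not for others. The genes were picked after their values were seen. Hhip, on the mean of its probe sets, was at 1.89 there against 0.85 and 0.84 in replicates 2 and 3. Scube2 was at 1.31 against 0.39 and 0.28, and the homeobox gene Nkx2-2 at 2.003 against 1.07 and 0.79. Gli1 was at 1.17 against 0.996 and 1.03, and Ptch1 at 0.19 against 0.07 and 0.03, which are smaller gaps. Gli2, Gli3 and Boc were instead highest in ventral lateral replicate 3, at 1.86, 1.18 and 0.67, and Gas1 in replicate 2, at 0.53. In floor plate, Gli1, Ptch1 and Gas1 were lowest in replicate 1, at -1.54, -0.55 and -0.80, while Gli2, Gli3 and Boc were lowest in replicate 3, at -1.94, -1.04 and -0.56. No relation between these genes was tested.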
